A study of Mus musculus with 12 samples.

Results

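The DnaJ proteins and heat shock proteins are the chaperones examined here. They were taken as every probe set whose gene symbol begins with Dnaja, Dnajb, Dnajc, Hspa or Hspb and a number, begins with Hsp90, or is Hspd1, Hspe1 or Hsph1. This rule, which uses names and no measured value, found 72 genes among the 23185 probe sets that carry 1 gene symbol, out of 25206 probe sets in all. The 72 comprised 46 DnaJ genes, 14 HSP70 or HSP110 genes, 2 HSP90 genes, 8 small heat shock genes and the 2 chaperonin genes. By the known place of the protein, 8 were counted to the lumen of the endoplasmic reticulum (ER), 5 to the ER membrane, 21 to the cytosol and nucleus, 7 to the small heat shock proteins and 8 to mitochondria, and 23 were left unassigned. Hsp90ab1, a further cytosolic gene, was not analysed here. Dnajc19-ps is a pseudogene by its name, and Hspa1a and Hspa1b are near-identical copies that may share probe signal, so their single values are uncertain.

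Arrays were hybridised with RNA from abdominal fat of BKS.Cg-Dock7m +/+ Leprdb/J mice. The db mutation disrupts the leptin receptor, and the animals become obese and diabetic. All mice were 12 weeks old and had free access to regular diet, and were killed 1 week after injection of adenoviruses that express short hairpin RNA (shRNA). Doses, in plaque-forming units, were 4e9 of control shRNA virus in the control group. The LCN13 group had 2e9 of LCN13 and 2e9 of control shRNA virus, the TSC22D4 group had 2e9 of TSC22D4 and 2e9 of control shRNA virus, and the combined group had 2e9 of TSC22D4 and 2e9 of LCN13 shRNA virus. Every group thus carried the same strain background and virus load. Control virus, however, was reduced in the single shRNA groups and absent from the combined group. Gain of a gene-directed virus and loss of control virus thus cannot be told apart against control. The same holds for the combined group against either single shRNA group. Only the LCN13 and TSC22D4 groups had equal amounts of control virus. Each group held 7 mice, of which 3 called representative by the labels were put on arrays (12 arrays in 4 groups). The series title places the work in the study of TSC22D4 in diabetic high blood glucose and insulin resistance, and the comparisons asked how fat RNA differed with each virus.

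Chaperones of the HSP70 class bind exposed hydrophobic stretches of unfolded proteins and release them in cycles of ATP hydrolysis. DnaJ proteins, also called J proteins, deliver clients to HSP70 and speed up its ATPase, and nucleotide exchange factors such as the HSP110 proteins reset it. Unfolded protein in the ER raises lumenal chaperones through the unfolded protein response and its transcription factors ATF6 and XBP1, whereas unfolded protein in the cytosol acts through heat shock factor 1. In fat, the ER makes the secreted adipokines, and markers of ER stress are known to be raised in obesity.

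The upstream sequences of the genes on which the results turn are shown first, since ER and cytosolic chaperones are known to answer to different promoter elements. RefSeq promoters of the mouse assembly GRCm38.p6 (250 bases before to 50 after a start site) were matched for 58 of the 72 genes, with 75 promoters. The ER stress element, spelled CCAAT, then 9 bases, then CCACG on either strand, was found in 3 of the 7 ER lumen genes with a promoter, namely Hspa5, Hsp90b1 and Dnajc3, in 0 of 18 cytosolic genes and in 39 of all 32851 promoters (0.119%). The matches are in capitals in the following windows, which run from chr2:34772015-34772053 (plus strand), from chr10:86705523-86705561 and chr10:86705628-86705666 (minus strand, 2 matches) and from chr14:118937817-118937855 (plus strand).
Hspa5: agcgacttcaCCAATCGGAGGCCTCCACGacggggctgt
Hsp90b1, nearer match: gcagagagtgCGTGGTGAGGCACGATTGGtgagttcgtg
Hsp90b1, farther match: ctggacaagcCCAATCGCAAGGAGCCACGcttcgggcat
Dnajc3: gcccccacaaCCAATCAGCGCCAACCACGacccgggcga

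Relative to the start site, the match began at base -65 in Hspa5, -105 in Dnajc3, and -107 and -212 in Hsp90b1. Dnajb9 and Dnajb1, whose RNA differed between groups as described below, held neither this element nor the full heat shock element (GAA, 2 bases, TTC, 2 bases, GAA, or its reverse complement). Their 250 upstream bases are printed because they are the genes that passed the test. They lie at chr12:44210069-44210318 on the minus strand for Dnajb9 and at chr8:83607925-83608174 on the plus strand for Dnajb1, the first of its listed start sites. In Dnajb9 capitals mark CCAAT and CCACG, the separate parts of the ER stress element, which stood 1 and 2 times in it. In Dnajb1 capitals mark the reverse complements of CCAAT and of CCACG, which stood 1 time each. CCAAT stood in 37.4% and CCACG in 32.8% of all promoters.
Dnajb9: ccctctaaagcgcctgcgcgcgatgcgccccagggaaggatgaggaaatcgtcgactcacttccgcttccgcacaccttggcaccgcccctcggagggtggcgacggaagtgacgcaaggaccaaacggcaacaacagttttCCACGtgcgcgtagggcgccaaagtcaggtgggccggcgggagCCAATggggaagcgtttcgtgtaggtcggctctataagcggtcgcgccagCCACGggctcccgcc
Dnajb1: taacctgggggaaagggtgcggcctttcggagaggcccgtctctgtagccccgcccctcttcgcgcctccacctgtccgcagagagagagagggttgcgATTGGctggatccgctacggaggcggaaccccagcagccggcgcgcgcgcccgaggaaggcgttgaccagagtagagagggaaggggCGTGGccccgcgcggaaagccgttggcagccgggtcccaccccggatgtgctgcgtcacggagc

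The heat shock element stood in 4 of the 58 genes, Hspd1, Hspe1, Dnajb6 and Hsph1. It was found in 6 of the 75 member promoters and in 198 of all 32851 promoters (0.603%). Hspd1 and Hspe1, transcribed in opposite directions, share 2 overlapping matches. They are given in capitals on the strand of Hspe1 at chr1:55088054-55088081.
Hspe1: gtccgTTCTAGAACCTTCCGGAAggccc

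The core of the XBP1 and ATF6 site, TGACGTGG, stood in 1 member, Dnajc25, and in 222 of all promoters (0.676%). A core of the interferon-stimulated response element (GAAA, 2 bases, GAAA) stood in 1 member, Hspb6, and in 1131 (3.44%). A shorter ER stress element, ATTGG, then 1 base, then CCACG, stood in 1 member, Dnajb11, and in 12 of all promoters (0.037%). These matches are of letters and do not show binding. The stress-inducible genes Hspa1a and Hspa1b held no match to the heat shock element as spelled here. The lack of a match, also in Dnajb1 and Dnajb9, thus does not show that a factor does not bind.

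Values are the authors' log2 RMA values, on which 1 unit is a doubling, and the quantity compared is a difference of group means of 3 arrays. A gene was called where the limma test over the 4 groups gave a Benjamini-Hochberg adjusted p under 0.05 across all 23185 genes. Values ran from 5.62 to 14.4, and 59 of the 72 members lay above the median probe set mean of 6.36. The 13 at or below it, among them Hsp90aa1, Dnajb6 and Hspa1l, lay where the scale compresses differences. Neither shRNA target was called in any comparison: Tsc22d4 lay between 7.56 and 7.88 and Obp2a, the current name of Lcn13, between 5.71 and 5.79. Obp2a lay near the lower end of the scale, where 5% of genes had means up to 5.71, so its values cannot show a knockdown either way, and neither target checks the group labels. Adipocyte markers (8 of 8 measured) lay between 12.7 and 12.9 in every group. Acinar pancreas (7 of 8 measured, 6.06 to 6.13) and skeletal muscle markers (8 of 8, 6.13 to 6.29) lay near the lower end. Interferon-stimulated genes, 23 of 24 measured, had 21 called lower and 0 higher against control in each shRNA group, with medians of -1.72 (LCN13), -1.63 (TSC22D4) and -1.84 (combined). Their part in the chaperone results was not tested.

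Few chaperones passed the test. Over the 4 groups, the moderated F test called 2 of 72 members, Dnajb9 of the ER and Dnajb1 of the cytosol, against 1.6% of all genes. At an unadjusted p under 0.05 the F test took in 16 members (22.2% of 72), against 16.1% of all genes. The range of the 4 group means had a median of 0.16 over the members and of 0.09 over all genes. The residual SD within groups was also larger, with a median of 0.0911 over the members and of 0.0647 over all genes. This range of means, for single members, was as follows. It exceeded 0.5 for 4 members (Dnaja4, Dnajc6, Hspb7 and Hspa1a) and 1 for Dnaja4 alone. Dnaja4, Dnajc6 and Hspb7 also varied widely within groups. Hspa1a did so in the combined group (SD 0.46), with SDs of 0.07 in control, 0.10 in LCN13 and 0.16 in TSC22D4. None of the 4 was called.

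Dnajb9, an ER lumen J protein induced by the unfolded protein response that assists the degradation of misfolded ER proteins, was the only ER member called. Controls read 10.85, 10.93 and 10.97, the LCN13 group 10.89, 10.90 and 10.87, the TSC22D4 group 11.01, 11.09 and 11.10, and the combined group 11.23, 11.29 and 11.22. The control and LCN13 arrays overlapped, all 3 TSC22D4 arrays lay above these 6, and all 3 combined arrays lay above the TSC22D4 arrays. Its rise against control in the combined group was 0.33 log2 or 1.26-fold (SE 0.04, limma adjusted p = 0.00131). Its rise against the LCN13 group was 0.36 or 1.28-fold (SE 0.04, limma adjusted p = 0.0444). In the latter comparison it had the smallest p of all 23185 genes, of which 2 were called, Dnajb9 higher and Samd9l lower.

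The TSC22D4 group's Dnajb9 was 0.15 above control (limma adjusted p = 0.1) and 0.18 above the LCN13 group (limma adjusted p = 0.0542), and the combined group was 0.18 above the TSC22D4 group (limma adjusted p = 0.366). None of these passed, except the difference from the LCN13 group without control replicate 1 or 3 (adjusted p = 0.0401 and 0.0449) or with array weights (adjusted p = 0.0242). The LCN13 group was 0.03 below control, with a 95% interval from -0.11 to 0.05. The interaction is the difference of combined from TSC22D4 minus the difference of LCN13 from control. For Dnajb9 it was 0.21 with a 95% interval from 0.10 to 0.32 (limma adjusted p = 0.228). Control virus was lower in the first group of each difference, so LCN13 virus and control virus cannot be told apart in it. The call against control held in all 12 fits that left out 1 array (adjusted p 0.00136 to 0.00829). The call against LCN13 was lost in 7 of 12, without control replicate 2, LCN13 replicate 5 or 6, TSC22D4 replicate 11 or any combined array (adjusted p 0.0295 to 0.308), and when the fit held the arrays of these 2 groups alone (adjusted p = 0.0792).

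Red blood cell markers moved with the same group. The mean of the 2 measured of 6, Alas2 and Slc4a1, lay between 9.35 and 9.54 in the combined arrays, 7.31 and 8.95 in controls, 7.53 and 9.01 in the LCN13 group and 8.29 and 8.95 in the TSC22D4 group. Plasma and B cell markers (7 of 8 measured), from cells rich in ER, lay between 6.79 and 6.95 in the combined arrays and between 6.76 and 6.84 in controls. They reached 7.41 in the TSC22D4 group. No gene of either list was called in any comparison. The part of these cells in the Dnajb9 result was not tested, and in whole fat a change in cell numbers and a change in RNA per cell cannot be told apart.

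**Figure D1:**
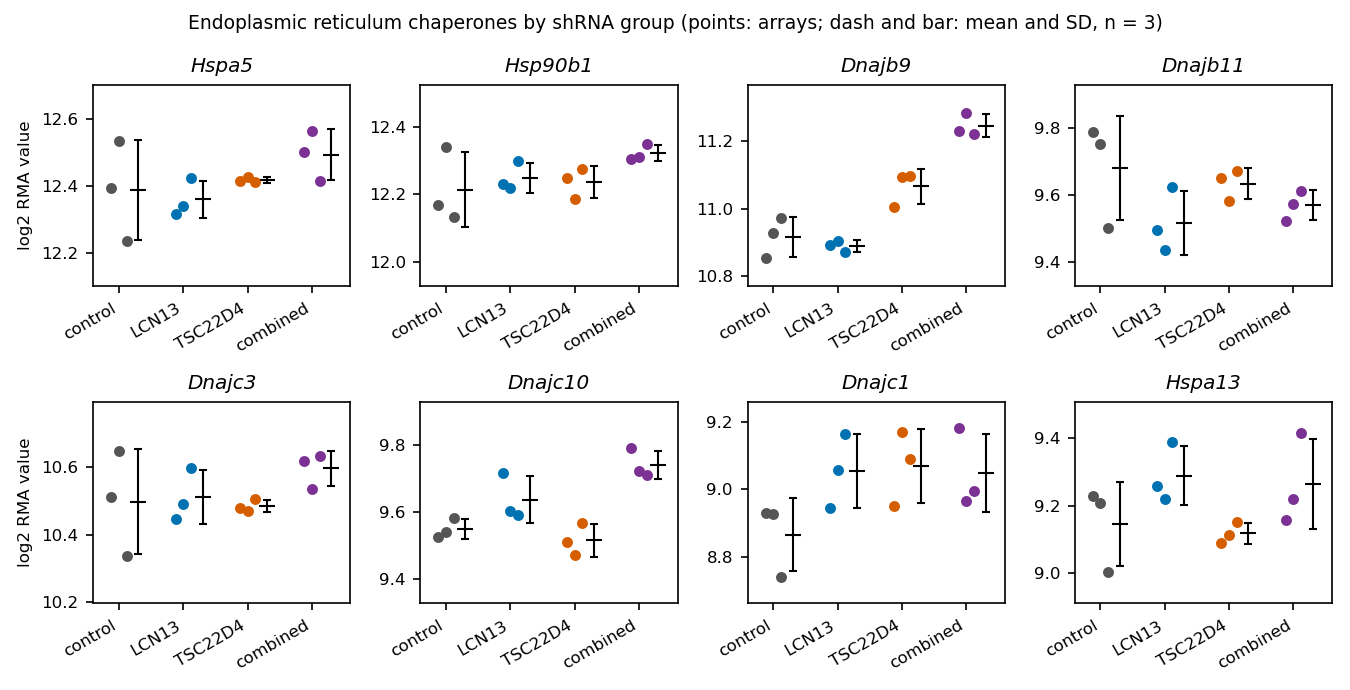
RMA log2 values (y axis, each panel with its own range) of the 8 ER lumen chaperones in the 4 shRNA groups; points are single arrays, dash and bar are the mean and SD of 3. The combined arrays of Dnajb9 lie at 11.22 to 11.29, above all others, while control replicate 3, the rightmost control point, is the lowest control in 6 of 8 panels.

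The other 7 ER lumen members were not called in any comparison. Hspa5 codes for BiP, the HSP70 of the ER and the partner of its J proteins. It read 12.40, 12.53 and 12.24 in controls, 12.32, 12.34 and 12.42 in the LCN13 group, 12.42, 12.43 and 12.41 in the TSC22D4 group and 12.50, 12.56 and 12.41 in the combined group. These ranges overlap, and the combined mean was 0.11 above control with a 95% interval from -0.05 to 0.26. Hsp90b1, the HSP90 of the ER, was at 12.17, 12.34 and 12.13 in controls and 12.31, 12.31 and 12.35 in the combined group, a difference of 0.11 (95% interval -0.01 to 0.22). Its combined arrays lay above all LCN13 and TSC22D4 arrays but overlapped with controls.

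Dnajc10, a J protein with thioredoxin domains that reduces disulfide bonds of proteins bound for degradation, came closest to a call. Controls read 9.53, 9.54 and 9.58, the LCN13 group 9.72, 9.60 and 9.59, the TSC22D4 group 9.51, 9.47 and 9.57, and the combined group 9.79, 9.72 and 9.71. The combined arrays lay above all controls and TSC22D4 arrays, and overlapped with the LCN13 arrays. Against control the difference was 0.19 (SE 0.04, limma adjusted p = 0.0558) and against the TSC22D4 group 0.22 (limma adjusted p = 0.366). Against control it passed without LCN13 replicate 5 (adjusted p = 0.0287) and with array weights (adjusted p = 0.0402). Its promoter held neither ER stress element.

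Dnajc3, a lumenal J protein also known as an inhibitor of the kinase PERK, was 0.10 above control in the combined group (95% interval -0.06 to 0.26). Hspa13, an HSP70 relative that lacks the peptide-binding domain, was 0.12 above (95% interval -0.06 to 0.30). Dnajb11, a soluble J protein that binds unfolded clients together with BiP, was 0.11 below (95% interval -0.28 to 0.06). Dnajc1, a membrane protein with a lumenal J domain, read 8.93, 8.93 and 8.74 in controls and 9.18, 8.97 and 9.00 in the combined group, a difference of 0.18 with a 95% interval from -0.01 to 0.37. Its LCN13 arrays read 8.94, 9.06 and 9.16 (0.19 above control) and its TSC22D4 arrays 8.95, 9.17 and 9.09 (0.20 above). All 9 arrays with a gene-directed virus lay above the shared controls, and none of the 3 differences was a call (limma adjusted p = 0.403, 0.384 and 0.486 for LCN13, TSC22D4 and combined).

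The 5 ER membrane J proteins had 0 calls by limma. Dnajc16 and Dnajc18, 2 of the 5, had an unadjusted F p under 0.05, beside 16.1% of all genes. Dnajc16 read 8.54, 8.64 and 8.62 in controls and 8.49, 8.50 and 8.47 in the combined group. The combined arrays lay below all others, by 0.11 on average against control (SE 0.03, limma adjusted p = 0.192). Dnajc18 read 7.52, 7.40 and 7.33 in the LCN13 group and 7.27, 7.17 and 7.15 in controls, a difference of 0.22 (limma adjusted p = 0.2) without overlap. Its TSC22D4 group differed from the LCN13 group by -0.27 without overlap (limma adjusted p = 0.0946), and this passed with array weights. Dnajb12 and Dnajb14, which act with cytosolic HSP70 on ER membrane proteins, differed from control by -0.02 to 0.06 and by 0.15 to 0.18 over the 3 shRNA groups, and Dnajc14 by 0.03 to 0.15. These comparisons share the control arrays.

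Dnajb1, the main stress-inducible J protein of the cytosol, was the only cytosolic member called. It read 8.35, 8.35 and 8.40 in controls, 8.63, 8.52 and 8.49 in the LCN13 group, 8.16, 8.21 and 8.19 in the TSC22D4 group and 8.23, 8.35 and 8.42 in the combined group. The LCN13 arrays lay above all controls, the TSC22D4 arrays below all controls, and the combined arrays ran from below to above the control range. Dnajb1 was lower in the TSC22D4 than in the LCN13 group by a log2 difference of -0.36, a 1.28-fold difference (SE 0.05, limma adjusted p = 0.0293). Against control the LCN13 group was 0.18 higher (limma adjusted p = 0.159) and the TSC22D4 group differed by -0.18 (limma adjusted p = 0.172), neither a call. The combined group differed from control by -0.03, with a 95% interval from -0.15 to 0.08. The call was lost in 5 of 12 fits that left out 1 array, those without LCN13 replicate 5 or 6 or any TSC22D4 array (adjusted p 0.0197 to 0.0947 over the 12). It was also lost when the fit held the arrays of these 2 groups alone (adjusted p = 0.0511), and trend and robust estimation ended the call of Dnajb1 by the F test.

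Mesothelial markers (8 of 8 measured), of the cell layer over abdominal fat, reached 8.62 in the LCN13 group, where they ranged from 7.62, against 7.49 to 8.01 in controls and 7.58 to 8.05 in the TSC22D4 group. Smooth muscle markers (8 of 8) lay between 8.60 and 8.72 in the LCN13 group and between 8.46 and 8.60 in the TSC22D4 group. T and NK cell markers (8 of 8) lay between 7.04 and 7.16 in the LCN13 group and between 7.33 and 7.51 in the TSC22D4 group. Liver markers (7 of 8) lay between 7.23 and 7.63 and between 7.05 and 7.21, and skeletal muscle markers between 6.13 and 6.15 and between 6.18 and 6.21. The arrays of the 2 groups thus overlapped for the mesothelial list and did not overlap for the other 4. For smooth muscle they nearly touched, with 8.6013 in the lowest LCN13 and 8.6006 in the highest TSC22D4 array. For liver these values were 7.23 and 7.21. Of these 5 lists, Des of smooth muscle was called in the LCN13 and the TSC22D4 group against control, and Ncr1 of T and NK cells in the TSC22D4 against the LCN13 group. Their part in the Dnajb1 result was not tested.

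**Figure D2:**
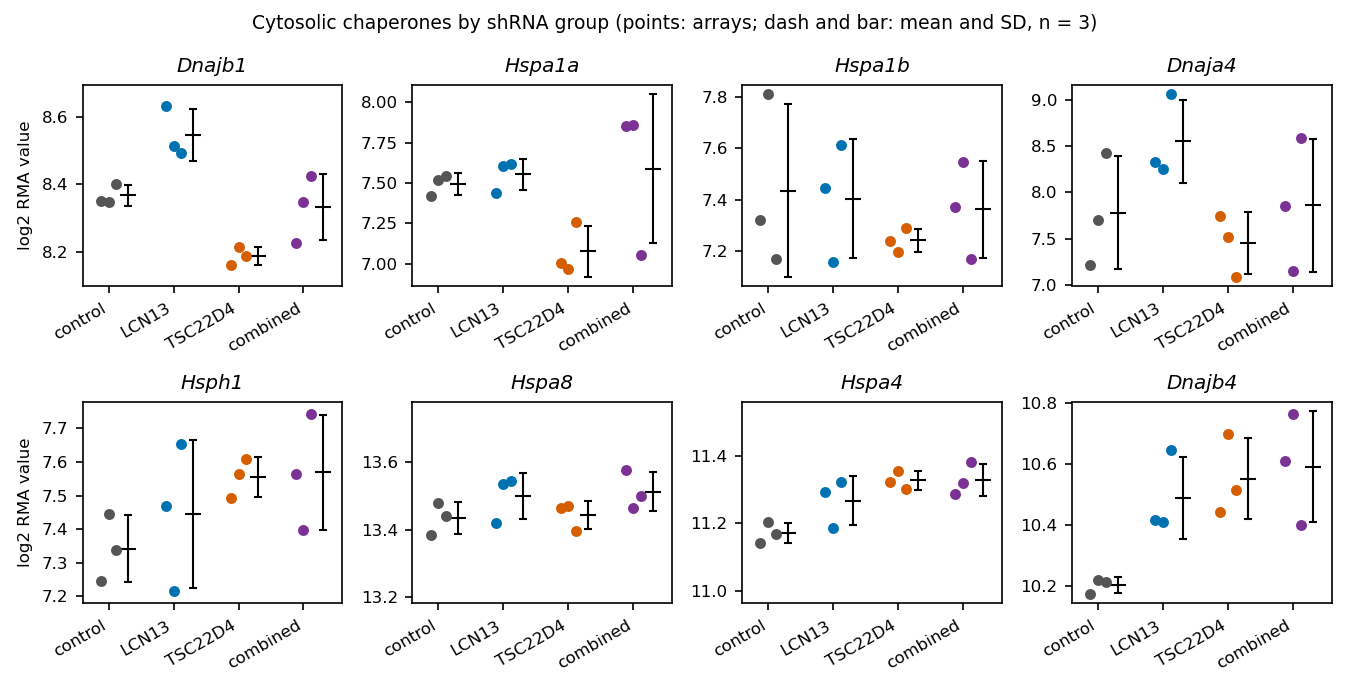
RMA log2 values (y axis, each panel with its own range) of 8 cytosolic chaperones in the 4 shRNA groups; points are single arrays, dash and bar are the mean and SD of 3. Dnajb1 lies at 8.49 to 8.63 with LCN13 virus and at 8.16 to 8.21 with TSC22D4 virus. Dnaja4 spreads widely within groups, Hspa1a mainly in the combined group and Hspa1b most in controls.

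The stress-inducible HSP70 genes did not pass with the J protein. Hspa1a read 7.42, 7.52 and 7.54 in controls, 7.44, 7.60 and 7.62 in the LCN13 group, 7.01, 6.96 and 7.26 in the TSC22D4 group and 7.85, 7.86 and 7.05 in the combined group. The TSC22D4 arrays lay below all control and LCN13 arrays, and combined replicate 16 lay among them. The difference between the TSC22D4 and LCN13 groups was -0.48 (SE 0.19, limma adjusted p = 0.241). It passed only without combined replicate 16 (adjusted p = 0.0424). Hspa1b, its near-identical copy, read 7.24, 7.20 and 7.29 in the TSC22D4 group, within the ranges of the other 3 groups, and differed from the LCN13 group by -0.16 with a 95% interval from -0.55 to 0.22.

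Hspa8, the constitutive cytosolic HSP70, lay between 13.38 and 13.58 over all 12 arrays. Its differences from control were 0.07, 0.01 and 0.08 in the LCN13, TSC22D4 and combined groups, with 95% intervals that ended at 0.18 or below. Hspa4, an HSP110 protein that acts as a nucleotide exchange factor, read 11.14, 11.20 and 11.17 in controls and lay between 11.30 and 11.36 in the TSC22D4 group and between 11.29 and 11.38 in the combined group. Neither overlapped with controls, at 0.16 (limma adjusted p = 0.116) and 0.16 (limma adjusted p = 0.099). Both passed only without LCN13 replicate 6 (adjusted p = 0.048 and 0.0429). Hsph1, a heat-induced HSP110, was 0.21 and 0.23 above control in the same groups, with overlapping arrays in the combined group.

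Dnajb4, a J protein close to Dnajb1, read 10.17, 10.22 and 10.21 in controls, 10.41, 10.41 and 10.64 in the LCN13 group, 10.44, 10.70 and 10.51 in the TSC22D4 group and 10.61, 10.76 and 10.40 in the combined group. All 9 arrays with a gene-directed virus lay above the 3 controls. The differences from the shared controls were 0.29, 0.35 and 0.39 (limma adjusted p = 0.26, 0.18 and 0.126), and none was a call. Dnaja1, another J partner of Hspa8, differed from control by -0.03 to -0.10, and the dim probe set of Hsp90aa1, the inducible cytosolic HSP90, by -0.08 to 0.10. Dnaja4 had the widest range of group means (1.10), from 7.45 in the TSC22D4 to 8.55 in the LCN13 group, but its single arrays ran from 7.22 to 8.43 within controls and from 7.15 to 8.59 within the combined group.

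Among the small heat shock proteins, which hold unfolded proteins without ATP, Hspb8 stood nearest to the threshold. It works with Bag3 in the autophagic removal of proteins. Controls read 10.82, 10.54 and 10.57, the LCN13 group 10.95, 11.03 and 10.95, the TSC22D4 group 10.92, 11.13 and 10.96, and the combined group 11.08, 11.04 and 10.88. All 9 arrays with a gene-directed virus lay above the 3 controls. The differences from the shared controls were 0.33, 0.36 and 0.36, each with an SE of 0.08 (limma adjusted p = 0.111, 0.0918 and 0.0885). Control replicate 1 was the highest control, and without it all 3 passed (0.42, 0.45 and 0.45, limma adjusted p = 0.0251, 0.025 and 0.0213). Hspb1, the small heat shock protein of most cells, spread from 9.86 to 10.45 within controls and differed from them by -0.07 to 0.07. Hspb7, known from muscle, had group means from 9.82 to 10.38 with an SD within groups of 0.27 to 0.45. The TSC22D4 and LCN13 groups differed by -0.56 (limma adjusted p = 0.318).

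The 8 mitochondrial members had 0 calls by limma, with 5 at an unadjusted F p under 0.05, beside 16.1% of all genes. Against control their median was 0.20 in the TSC22D4 group, where all 8 lay above 0, 0.07 in the combined group and -0.02 in the LCN13 group, beside medians over all genes of -0.0022, 0.0015 and 0.004. In the TSC22D4 group 11025 of all 23185 genes lay above 0. Hspd1, the mitochondrial chaperonin HSP60, read 11.31, 11.53 and 11.20 in controls and 11.61, 11.63 and 11.55 in the combined group. The difference was 0.25 without overlap (limma adjusted p = 0.417). Hspe1, its co-chaperonin, was 0.22 above control (limma adjusted p = 0.65). The pair shares the upstream region printed above. Hspa9, the mitochondrial HSP70, was 0.16 above control in the LCN13 group (limma adjusted p = 0.167) and 0.04 in the TSC22D4 group.

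Dnajc30, a mitochondrial J protein, read 7.46, 7.36 and 7.55 in controls, 7.36, 7.33 and 7.06 in the LCN13 group, 7.65, 7.67 and 7.66 in the TSC22D4 group and 7.25, 7.33 and 7.15 in the combined group. Its TSC22D4 arrays lay above all others. The TSC22D4 group was 0.41 above the LCN13 group (SE 0.08, limma adjusted p = 0.0517). This difference passed without LCN13 replicate 8 (adjusted p = 0.0377), with array weights and with the filter on dim probe sets. The combined group differed from the TSC22D4 group by -0.42 (limma adjusted p = 0.366). Dnajc19, of the protein import motor of the inner membrane, was at 9.36, 9.39 and 9.21 in the combined group and 9.04, 8.88 and 9.06 in controls, 0.33 higher without overlap (limma adjusted p = 0.147). Dnajc11, of the complex that shapes the inner membrane, was lowest in the LCN13 group at 7.81, 7.70 and 7.88, 0.21 below the TSC22D4 group (95% interval of TSC22D4 minus LCN13 0.09 to 0.34, limma adjusted p = 0.0997). This difference passed with array weights.

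Taken by comparison, LCN13 against control called 0 of 72 members by limma, against 1.44% of all genes. At an unadjusted p under 0.05 it took in 14 (11 higher, 3 lower; 19.4%), against 12.6% of all genes. TSC22D4 against control called 0, against 1.17%, and took in 10 unadjusted (8 higher, 2 lower; 13.9%), against 11.8%. Combined against control called 1, Dnajb9, against 1.34%, and took in 12 unadjusted (10 higher, 2 lower; 16.7%), against 11.0%. The called shares of members thus lay at or near the background in these comparisons, which share the control arrays.

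Between the shRNA groups, TSC22D4 against LCN13 called 1 member, Dnajb1, against 1.03% of genes, and took in 16 unadjusted (6 higher, 10 lower; 22.2%), against 17.7%. Combined against LCN13 called 1, Dnajb9, against 0.00863%, and took in 12 unadjusted (7 higher, 5 lower; 16.7%), against 10.7%. Combined against TSC22D4 called 0 by limma, against 0.0%, and took in 9 unadjusted (5 higher, 4 lower; 12.5%), against 6.91%. The interaction called 0 members by limma, against 0.397%, and took in 7 unadjusted (4 higher, 3 lower; 9.72%), against 7.06%.

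**Figure D3:**
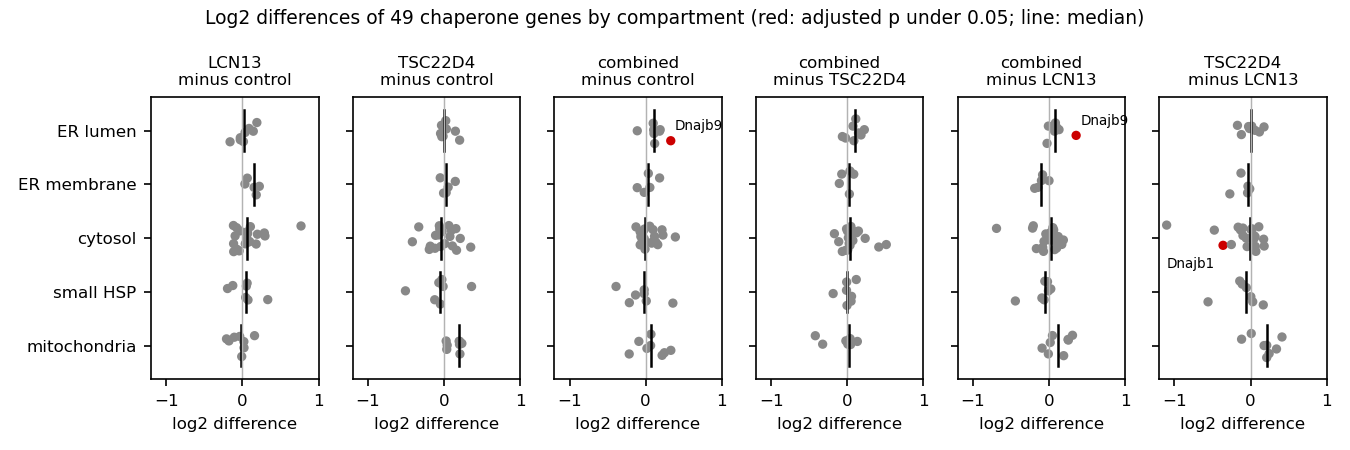
Log2 differences between group means (x axis) of the 49 members assigned to a compartment (rows), in 6 comparisons (panels); each point is a gene, vertical lines are class medians, red points have an adjusted p under 0.05. Points cluster around 0, apart from Dnajb9 at 0.33 and 0.36, Dnajb1 at -0.36, and uncalled points of wide spread such as Dnaja4 at -1.10.

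ER and cytosolic members were compared by centring each gene on its mean over 12 arrays and averaging over the class in each array, with no test, since a mean over chosen genes is a description. The ER lumen mean was -0.05 in control, -0.02 in the LCN13 group, -0.01 in the TSC22D4 group and 0.08 in the combined group. All 3 combined arrays (0.08, 0.07 and 0.09) lay above the other 9, of which control replicate 3 was lowest at -0.14. This mean includes Dnajb9, the only 1 of the 8 genes whose own combined arrays lay above the other 9. A mean without Dnajb9 was not taken, so the separation may rest on that 1 gene and is not shown for the rest of the class. Against control 7 of the 8 ER lumen members lay above 0 in the combined group, with a median of 0.11. Beside them, 10 of 21 cytosolic members (median -0.0030) and 11987 of all 23185 genes (median 0.0015) lay above 0. The 8 differences share the 3 control arrays, of which replicate 3 was the lowest for 6 of the 8. Of these 8 only Dnajb9 was a call.

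The ER lumen mean minus the cytosolic mean was -0.02 ± 0.12 (SD, n = 3) in control, -0.07 ± 0.03 in the LCN13 group, 0.03 ± 0.04 in the TSC22D4 group and 0.06 ± 0.013 in the combined group. The combined group lay 0.12 and the TSC22D4 group 0.10 above the LCN13 group, in both cases with no overlap of arrays. With medians over the members in place of means these differences were 0.10 without overlap and 0.02 with overlap. With Dnaja4, whose cytosolic values differed most between the LCN13 and TSC22D4 groups, left out after its values were seen, they were 0.09 and 0.05, both without overlap. The combined group lay 0.08 above control and 0.02 above the TSC22D4 group, with overlap in both. Control replicate 3 (-0.16) set the spread of the controls, and without it the difference between combined and control was 0.01. With the ER membrane members added to the ER class, the combined group lay 0.05 and the TSC22D4 group 0.06 above the LCN13 group, both with overlap, and the combined group differed from the TSC22D4 group by -0.02.

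**Figure D4:**
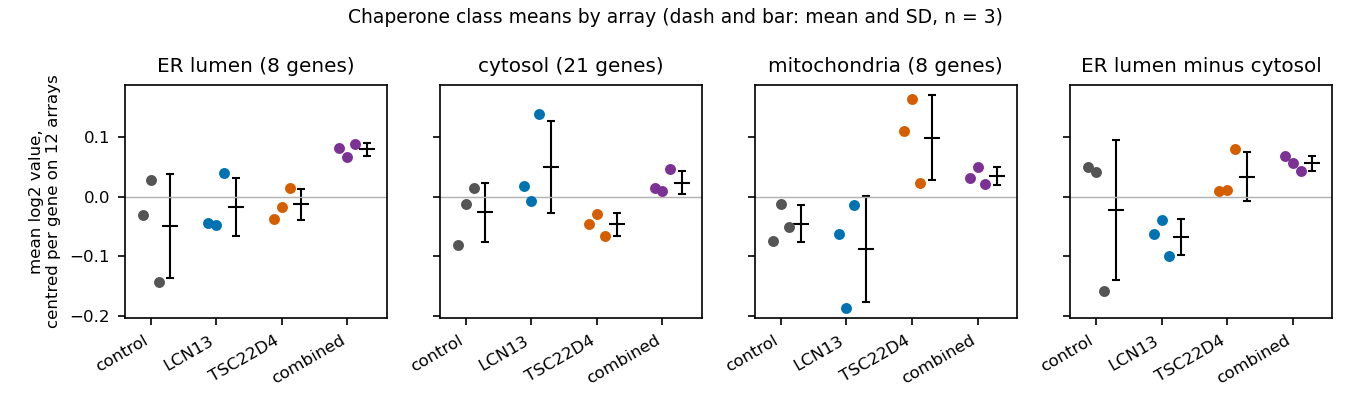
Mean centred log2 value (y axis) of the ER lumen, cytosolic and mitochondrial chaperones, and the ER lumen mean minus the cytosolic mean, in each array by shRNA group; points are arrays, dash and bar are the mean and SD of 3. The ER lumen means of the combined arrays (0.07 to 0.09), which include the called gene Dnajb9, lie above all others. Control replicate 3 is lowest in the first and last panels.

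Other genes of the ER pathway were read from a list of 27 folding and unfolded protein response genes, all measured. In each comparison with control 0 of 27 were called by limma, with medians of 0.03 in the LCN13, 0.01 in the TSC22D4 and 0.05 in the combined group. At an unadjusted p under 0.05 there were 2 higher and 1 lower, 1 and 0, and 1 and 1. Of all genes 12.6%, 11.8% and 11.0% passed that level in these comparisons. The only call was Sil1, a nucleotide exchange factor of BiP, in the TSC22D4 against the LCN13 group. It read 8.32, 8.26 and 8.14 with TSC22D4 virus and 8.03, 8.03 and 8.05 with LCN13 virus, a difference of 0.20 (SE 0.04, limma adjusted p = 0.0497). Controls read 8.15, 8.20 and 8.20. Against them the TSC22D4 group differed by 0.06 with overlap. The LCN13 group differed by -0.14 and the combined group by -0.12, both without overlap (limma adjusted p = 0.134 and 0.23). Sdf2l1, a BiP partner induced by the unfolded protein response, read 9.44, 9.45 and 9.34 in the TSC22D4 group and 9.20, 9.25 and 9.08 in controls, without overlap and with a limma adjusted F p of 0.0648. Of the sensors and transcription factors, the kinase gene Eif2ak3 (PERK) and Atf4 had the smallest F p, with limma adjusted values of 0.294 and 0.299. Sec63, the J protein of the translocation channel, was at 0.268, and Xbp1 at 0.315. The combined arrays of Xbp1, at 12.58, 12.58 and 12.54, lay below all others. They differed from control by -0.05 on average (limma adjusted p = 0.598).

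Of 19 genes for partners of the cytosolic chaperones 17 were measured, and limma called 0 in any comparison. At an unadjusted p under 0.05 there were 2 higher and 0 lower against control in the LCN13 group, 1 and 1 in the TSC22D4 group and 2 and 2 in the combined group. The shares of all genes at that level were 12.6%, 11.8% and 11.0%. Stub1, a ubiquitin ligase that binds HSP70 and HSP90, read 8.14, 8.11 and 8.08 in the combined group and 8.35, 8.43 and 8.45 in the LCN13 group, a difference of -0.30 without overlap (limma adjusted p = 0.15). Stip1, which links HSP70 to HSP90, was 0.13 above the shared controls in the LCN13, 0.14 in the TSC22D4 and 0.15 in the combined group, each without overlap (limma adjusted p = 0.191, 0.182 and 0.129). Gak and St13, a clathrin-uncoating J protein and an HSP70 cofactor, followed with limma adjusted F p-values of 0.368 and 0.381.

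Of the 23 unassigned members limma called 0. Dnajc24 and Hspb11, 2 of the 23, had an unadjusted F p under 0.05, beside 16.1% of all genes. Dnajc6, the auxilin that helps HSP70 strip clathrin from vesicles, read 7.97, 7.79 and 8.46 in controls and had group means of 8.77, 8.73 and 8.69 with the gene-directed viruses, where single arrays ran from 8.21 to 9.29. Its arrays overlapped in the TSC22D4 and combined groups, and the limma adjusted p was at least 0.386 against control. Dnajc24, which acts in diphthamide synthesis, read 8.11, 8.22 and 8.12 in the TSC22D4 group and 7.95, 7.75 and 7.66 in controls, 0.37 higher without overlap (limma adjusted p = 0.124).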

How the data were processed

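Biotin-labelled RNA of 12 mice was hybridised to Affymetrix arrays. The authors deposited 1 log2 value per probe set and array, made with RMA per the submitters' processing notes (background correction, normalization between arrays and summary of probes). RMA's version and settings and the genome build were not given in the sources used here. Sorted columns differed by at most 0.00188, so all arrays share 1 distribution, which removes changes common to most genes. Names came from the platform table, 1 probe set per gene, and 2021 unnamed probe sets were not tested. Array correlations across probe sets were 0.994 to 0.998 within groups and 0.991 to 0.997 between groups.

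Differences were tested two-sided in R 4.3.3 with limma 3.58.1 (lmFit and contrasts.fit, then eBayes at its defaults). The 4 group means were fitted to all 12 arrays together, with Benjamini-Hochberg adjustment over 23185 genes in each comparison and a call at an adjusted p under 0.05. Residual degrees of freedom were 8 and prior ones 1.38, and the residual SD had a median of 0.0647. The fit was tested on simulated data. The number of arrays limits the precision. Alternatives were a filter on dim probe sets, array weights, trend and robust estimation, only the arrays compared, all probe sets, centring on bright probe sets and leaving out each array. Promoter sequences and coordinates came from RefSeq (GRCm38.p6).

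The members, their compartments and all lists were chosen with earlier results of these data known. Genes described are all ER lumen members, all members called, and a list of 12 main cytosolic, small and mitochondrial chaperones except its Hsp90ab1. Added to these are the 8 other members with the smallest F p. For each pathway list the genes called and up to 4 others with the smallest F p are described. The interferon-stimulated genes are instead given as counts and medians. Dnaja4, Dnajc6, Hspb7, Dnajc24, Hspb11, Dnajb12, Dnajb14 and Dnajc14, and Xbp1 of the ER list, were added after their values were seen. Protein sequences were not used here.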

Additional observations from a re-analysis of the deposited data

Results flagged for a closer look

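Of 23 measured interferon-stimulated genes, 17 had a called interaction between the LCN13 and TSC22D4 viruses by limma. Control virus fell from 4e9 to 2e9 plaque-forming units in one arm of that difference and from 2e9 to none in the other, so the gene-directed viruses and the amount of control virus cannot be told apart in it. The chaperones had 0 called interactions by limma, with 7 at an unadjusted p under 0.05. Of all genes 0.397% had a called interaction and 7.06% an unadjusted p under 0.05. Groups of 3 arrays were not tested for outlying samples.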

How the results depend on the processing

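No result changed direction where it was a call. Dnajb9 in the combined group against control kept its call under all 6 other settings and all 12 fits without 1 array. Fitting only the arrays compared ended the calls of Dnajb9 against LCN13 (adjusted p = 0.0792) and Dnajb1 (adjusted p = 0.0511), leaving 0 members in each, and the cause was not tested beyond the fewer arrays. With array weights the count of called members was 1 in LCN13 and 1 in TSC22D4 against control (Hspb8), and 3 in combined against control (Dnajb9, Dnajc10, Hspb8). It was 5 in TSC22D4 against LCN13 (Dnajb1, Dnajb9, Dnajc11, Dnajc18, Dnajc30) and 5 by the F test (Dnajb1, Dnajb9, Dnajc10, Dnajc30, Hspb8). The filter on dim probe sets gave 1 in TSC22D4 against control and 2 in TSC22D4 against LCN13 (Dnajb1, Dnajc30). Trend and robust estimation gave 1 in TSC22D4 against control and 1 by the F test (Dnajb9). Without 1 array, counts ranged from 0 to 2 in LCN13, 0 to 1 in TSC22D4 and 1 to 3 in combined against control, 0 to 1 in combined against LCN13, 0 to 3 in TSC22D4 against LCN13, and 1 to 3 by the F test. They stayed at 0 in combined against TSC22D4 and the interaction. The ER lumen minus cytosolic difference with medians in place of means was 0.0737 for combined against TSC22D4, 0.0966 for combined against LCN13 and 0.023 for TSC22D4 against LCN13. With ER membrane members added these were -0.0158, 0.0464 and 0.0622. With Dnaja4 left out, a setting chosen after seeing the data, the differences from LCN13 were 0.0898 (combined) and 0.0506 (TSC22D4). Without 1 array they ranged from 0.0097 to 0.0455, 0.107 to 0.137 and 0.0774 to 0.115, and against control from 0.01 to 0.114 (combined), -0.0120 to 0.092 (TSC22D4) and -0.113 to -0.0089 (LCN13). Centring on bright probe sets moved group differences by at most 0.00368. No paired analysis was possible because the groups share no replicate numbers. Probe sets near the lower end, such as Hsp90aa1, limit what could be detected.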
